A study of Mus musculus with 6 samples.

Results

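Imprinted genes are expressed from the copy inherited from 1 parent, because DNA methylation laid down in the germ line marks the copies differently. The 10 genes followed here in mouse cells were *H19*, *Igf2*, *Peg3*, *Mest*, *Cdkn1c*, *Plagl1*, *Grb10*, *Snrpn*, *Ndn* and *Dlk1*. They were chosen by name, and all 10 were found by reference gene name among the 58295 genes of the files. In most mouse tissues 7 of them are expressed from the paternal copy (*Igf2*, *Peg3*, *Mest*, *Plagl1*, *Snrpn*, *Ndn* and *Dlk1*) and 3 from the maternal copy (*H19*, *Cdkn1c* and *Grb10*). Paternally expressed genes tend to promote growth of the embryo and maternally expressed genes to restrain it, and many fall silent after birth. The files hold levels of transcripts and no alleles, so the parental origin of the RNA was not measured.

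The cells were GL261, an established line from a mouse glioma. The treated group had received sodium propionate, whose anion is a short fatty acid released by bacteria of the gut, at 1 uM for 4 h per the labels (3 libraries, numbered 1, 4 and 5). This is far under the doses of propionate common in culture, and nothing in the files shows whether the unit is right. The comparison group had received sodium chloride at the same dose and for the same time (3 libraries, numbered 1, 2 and 3). The question of the series is which transcripts change after propionate. The labels do not say whether the libraries came from separate cultures, and the p-values therefore rest on a spread between libraries that may be technical. StringTie counted 9.33 to 11.3 Gb of aligned bases per propionate library and 9.15 to 9.47 Gb per chloride library. Transcript models with any coverage numbered 71192 in propionate 1 and 71452 in chloride 3, against 81178 to 82370 in the other 4 libraries. The sum of 12 glioma and neural markers was 3832 to 4215 TPM (transcripts per 1000000) in propionate libraries and 3554 to 3979 TPM in chloride libraries. Most of it was *Vim*, with a mean of 3122 TPM, followed by *Nes* with 343 TPM. A mean of at least 1 TPM was reached by 10 of the 12, of which *Olig2* (1.51 TPM) and *Fabp7* (1.39 TPM) were the lowest. *Gfap* averaged 0.933 TPM. The astrocyte transporter gene *Slc1a3* was at or near 0, at 0.120 TPM at most. Of 19 markers of other cell types, 12 stayed under 0.2 TPM in each library, 5 of them at 0, including *Itgam*, *Cd3e* and *Hbb-bs*. The other 7 averaged at least 1 TPM. The lowest of these were *Krt8* (1.564 TPM), *Pdgfrb* (1.287 TPM), *Mog* (1.145 TPM) and *Epcam* (1.086 TPM). The sum of the 19 was 366 to 454 TPM in propionate libraries and 366 to 413 TPM in chloride libraries, nearly all from *Mbp*, *Acta2* and *Col1a1*.

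Levels are scaled TPM, an abundance per transcript length, summed over the models of a gene. Values with an error are mean ± SD with n = 3 libraries per salt. Differences are on the log2(TPM + 1) scale, propionate minus chloride, tested with limma over the 15487 genes whose mean reached 1 TPM. In bulk RNA, fewer cells with a transcript and less transcript per cell cannot be told apart.

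The 10 genes differed widely in level. *Mest* averaged 676.3 TPM over the 6 libraries, *Peg3* 23.8 TPM and *Plagl1* 3.52 TPM. No other member reached a mean of 1 TPM, so these 3, all paternally expressed, were the members tested. *Cdkn1c* averaged 0.426 TPM, *H19* 0.356 TPM, *Igf2* 0.0668 TPM and *Grb10* 0.0086 TPM. *Snrpn*, *Ndn* and *Dlk1* had 0 TPM in all 6 libraries. The steps from *Mest* to *Peg3* (28.5-fold), from *Peg3* to *Plagl1* (6.75-fold) and from *Plagl1* to *Cdkn1c* (8.26-fold) exceeded the spread over libraries. Below that, the ranges of neighbours in the order overlapped.

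**Figure D1:**
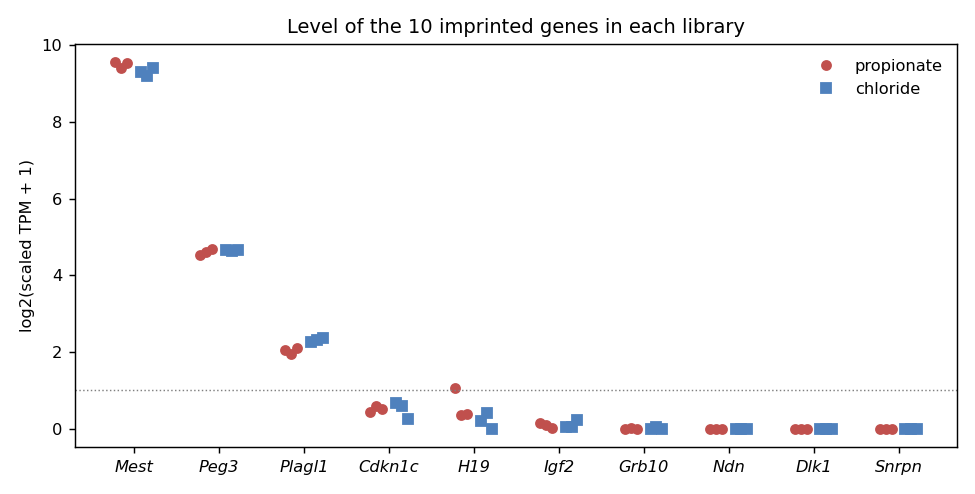
Level of each of the 10 imprinted genes in each library, as log2(scaled TPM + 1), with propionate as red circles and chloride as blue squares; the dotted line is at 1 TPM. *Mest*, *Peg3* and *Plagl1* lie above the line in all 6 libraries, *H19* does so in propionate 1 alone, and *Snrpn*, *Ndn* and *Dlk1* lie at 0.

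None of the 3 tested members passed adjusted p 0.05 by limma, a threshold that 0.00646% of all genes tested passed. At unadjusted p under 0.05, 1 member (*Mest*) was higher and 1 (*Plagl1*) lower in propionate, where 2.16% of all genes were higher and 2.98% lower (5.15% in all). With voom, which fits estimated read numbers, no member passed and *Mest* alone had an unadjusted p under 0.05. At that p, 271 of all 15487 genes were higher and 559 lower by voom.

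*Mest* encodes a membrane protein of the endoplasmic reticulum with the fold of a hydrolase. Also named Peg1, it is a marker of embryonic mesoderm and mesenchyme. The gene (ENSMUSG00000051855) spans 30723547 to 30748465 of chromosome 6, plus strand, in the build mm10. *Mest* stood at 752.3, 673.9 and 741.5 TPM in propionate 1, 4 and 5, and at 627.2, 583.3 and 679.9 TPM in chloride 1, 2 and 3. Propionate 4 lay just below chloride 3, so the groups overlapped, and chloride 2 was the lowest library. Propionate averaged 722.6 ± 42.5 TPM and chloride 630.1 ± 48.4 TPM. The log2 difference was 0.20 (SE 0.08, 95% interval 0.01 to 0.39, limma adjusted p = 0.915). With TPM as deposited it was 0.10, where the median of all genes was -0.08 against 0.01 after scaling. In the ranking of all tested genes by mean level, *Mest* was 164th, above 98.9% of them.

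Nearly all *Mest* transcripts began at the downstream start, which in the mouse lies in the germline-methylated region of the gene. Models that began within 100 bases of position 30738050 held 98.3% to 99.1% of the gene's TPM in propionate libraries and 98.5% to 98.7% in chloride libraries. ENSMUST00000163949 alone held a mean of 87.8% and ENSMUST00000124665 held 10.2%. ENSMUST00000163949 stood at 635.6 ± 43.2 TPM in propionate and 552.3 ± 36.6 TPM in chloride (log2 0.20, limma adjusted p = 0.862 over 35755 transcripts). ENSMUST00000124665 stood at 73.9 ± 3.17 TPM and 63.6 ± 11.8 TPM in the same order of salts (log2 0.23, limma adjusted p = 0.862). The short models ENSMUST00000149496, ENSMUST00000131465 and ENSMUST00000130751 were lower in propionate (log2 -0.35, -0.21 and -0.44, limma adjusted p = 0.862 for each). They held means of 0.851%, 0.687% and 0.176% of the TPM. The assembled model MSTRG.17985.4, with 0.223%, was higher (log2 0.50, limma adjusted p = 0.930). For transcripts, 0.0364% passed the threshold.

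For the expressed members, the 250 bases before the RefSeq start nearest to the one that carried the RNA are shown, in GRCm38.p6, with CG dinucleotides, the sites of DNA methylation, in capitals. *Grb10* is shown as the member with the most CG sites here. The *Mest* window ends at the base before 30738050, while those of *Peg3* and *Plagl1* run past 6730431 and 13090788 and so hold the first bases of the main models.
Mest, chr6:30737800-30738049, plus strand: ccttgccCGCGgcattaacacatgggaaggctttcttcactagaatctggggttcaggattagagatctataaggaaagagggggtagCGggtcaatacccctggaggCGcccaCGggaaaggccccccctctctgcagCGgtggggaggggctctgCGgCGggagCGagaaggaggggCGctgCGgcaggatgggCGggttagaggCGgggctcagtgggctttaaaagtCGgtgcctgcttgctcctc
Peg3, chr7:6730420-6730669, minus strand: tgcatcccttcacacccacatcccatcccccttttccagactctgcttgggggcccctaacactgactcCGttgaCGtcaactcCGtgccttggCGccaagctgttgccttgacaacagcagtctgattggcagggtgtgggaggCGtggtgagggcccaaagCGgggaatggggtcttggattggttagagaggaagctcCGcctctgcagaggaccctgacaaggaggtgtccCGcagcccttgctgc
Plagl1, chr10:13090582-13090831, plus strand: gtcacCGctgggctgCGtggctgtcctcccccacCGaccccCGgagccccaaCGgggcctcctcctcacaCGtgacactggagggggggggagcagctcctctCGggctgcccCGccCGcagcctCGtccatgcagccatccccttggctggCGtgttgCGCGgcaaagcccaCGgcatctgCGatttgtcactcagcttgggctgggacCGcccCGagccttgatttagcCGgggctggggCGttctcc
Grb10, chr11:12037421-12037670, minus strand: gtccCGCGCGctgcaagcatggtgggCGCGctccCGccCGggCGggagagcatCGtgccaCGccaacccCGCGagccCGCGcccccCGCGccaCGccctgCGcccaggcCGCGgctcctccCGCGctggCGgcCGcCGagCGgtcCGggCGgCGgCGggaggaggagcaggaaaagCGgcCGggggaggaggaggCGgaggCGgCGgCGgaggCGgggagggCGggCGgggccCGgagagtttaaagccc
The *Mest* window holds 14 CG sites, that of *Peg3* 8, that of *Plagl1* 19 and that of *Grb10* 40, against a median of 6 over 32850 windows of this length. Windows with fewer CG sites made up 70.6%, 57.0%, 80.3% and 98.7% of the table for the windows in that order. The letters TGCCGC, the core that the imprint-protecting protein ZFP57 binds when methylated, occur on either strand 2 times in the *Mest* window, 1 time in that of *Plagl1* and 0 times in the other two. Of all windows, 8.68% hold them. The table had entries for 8 of the 10 members, with 17 windows in all, and the letters were in 3 windows of 2 members. In the windows shown, CG counts did not follow the level: *Mest*, the highest member, has 14 and *Grb10*, near 0, has 40. The reading depends on the windows chosen. The other *Grb10* window has 8 CG sites, and those of *Igf2* have 1 to 22. Among members at 0 TPM, the *Snrpn* windows have 2 to 4, that of *Ndn* 5 and that of *Dlk1* 8. Methylation was not measured.

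*Peg3* encodes a large zinc finger protein that binds DNA and acts in growth and in maternal behaviour of mice. The gene (ENSMUSG00000002265) spans 6703892 to 6730431 of chromosome 7, minus strand. It stood at 22.2, 23.4 and 24.9 TPM in propionate 1, 4 and 5, and at 24.1, 23.9 and 24.2 TPM in chloride 1, 2 and 3. The chloride values lay inside the range of the propionate values. Propionate averaged 23.5 ± 1.33 TPM and chloride 24.1 ± 0.147 TPM. The log2 difference was -0.03 (95% interval -0.19 to 0.12, limma adjusted p = 0.955), and without propionate 1 it was 0.0026. Models beginning within 100 bases of position 6730431 held 95.8% to 100% of its TPM in propionate and 96.1% to 100% in chloride.

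The split of *Peg3* between a pair of models of nearly equal length differed more between libraries than the sum did. ENSMUST00000051209 held 91.7%, 72.5% and 79.0% of the TPM in propionate 1, 4 and 5, and 70.0%, 78.8% and 88.7% in chloride 1, 2 and 3. The assembled model MSTRG.19184.3, with 8852 nt against 8704 nt, held 0.275%, 18.5% and 11.4% in the propionate libraries and 20.2%, 11.6% and 0.127% in the chloride libraries. Propionate 1 and chloride 3, the libraries with fewer covered models, were the ones that almost lacked the assembled model. Without assembled models *Peg3* stood at 20.9 ± 1.80 TPM in propionate and 21.5 ± 2.59 TPM in chloride (log2 -0.03).

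*Plagl1*, also called Zac1, encodes a zinc finger transcription factor that restrains proliferation and regulates other imprinted genes in mice. The gene (ENSMUSG00000019817) lies on the plus strand of chromosome 10, from 13060504 to 13131694. It stood at 3.16, 2.83 and 3.33 TPM in propionate 1, 4 and 5, and at 3.75, 3.96 and 4.10 TPM in chloride 1, 2 and 3. All propionate libraries lay below all chloride libraries, as they did for 6.48% of genes tested. Propionate averaged 3.10 ± 0.255 TPM and chloride 3.94 ± 0.180 TPM. The log2 difference was -0.27 (SE 0.10, 95% interval -0.52 to -0.02, limma adjusted p = 0.915). With voom it was -0.0081 (adjusted p = 0.997).

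**Figure D2:**
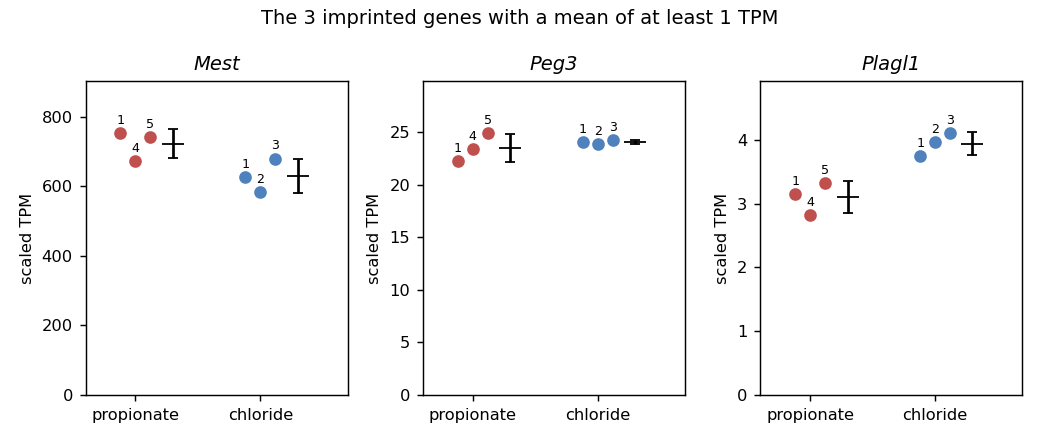
Scaled TPM of *Mest*, *Peg3* and *Plagl1* in each library, with library numbers, and mean ± SD (n = 3) as black bars, propionate left and chloride right. *Plagl1* is the only one of the 3 genes whose groups do not overlap, with 2.83 to 3.33 TPM in propionate and 3.75 to 4.10 TPM in chloride.

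The *Plagl1* difference lay in its short models, a split chosen after the values were seen. The 3 models over 4000 nt, which reach the end of the gene, summed to 2.42, 2.31 and 2.28 TPM in propionate 1, 4 and 5 and to 2.15, 2.34 and 2.50 TPM in chloride 1, 2 and 3. Their means were 2.34 ± 0.0733 TPM in propionate and 2.33 ± 0.177 TPM in chloride, with overlapping groups. The other 21 models, all under 3000 nt, 11 of them above 0 in some library, summed to 0.738, 0.513 and 1.05 TPM in propionate and to 1.60, 1.62 and 1.61 TPM in chloride. TPM divides by length, so a read on a short model adds more than a read on a long one. Counted as aligned bases per Gb, *Plagl1* had 5.996 ± 0.213 kb in propionate and 6.21 ± 0.711 kb in chloride, and the groups overlapped. The cause of the difference in the short models was not tested. ENSMUST00000121646 held a mean of 48.5% of the TPM and ENSMUST00000121325 held 12.1%. Both were at 0 in some library, ENSMUST00000121646 in chloride 1 and ENSMUST00000121325 in propionate 1 and chloride 2. ENSMUST00000121646, the member of the pair that was tested, stood at 2.04 ± 0.325 TPM in propionate and 1.25 ± 1.22 TPM in chloride (log2 0.60, limma adjusted p = 0.862). Models that began within 100 bases of position 13090788 held 85.9% to 95.4% of the TPM in propionate and 88.2% to 94.9% in chloride.

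**Figure D3:**
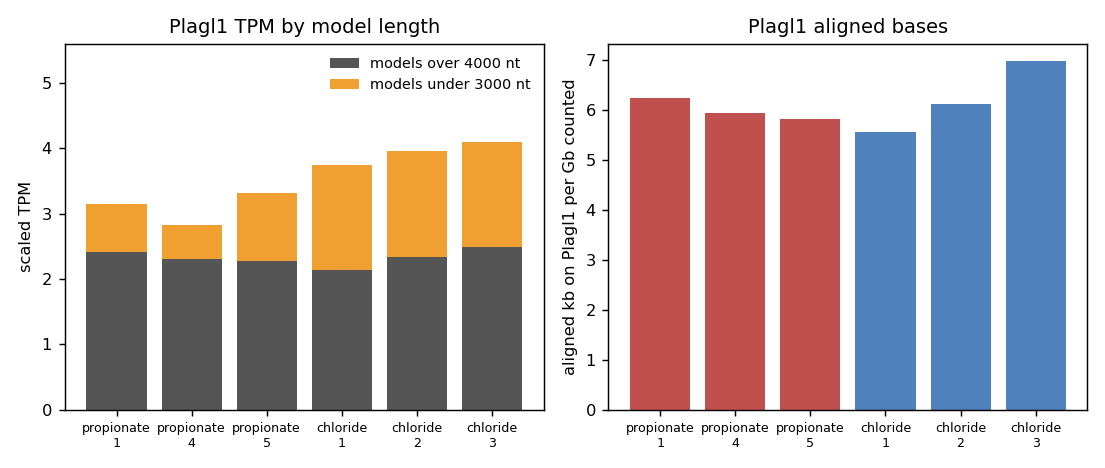
*Plagl1* in each library, propionate left and chloride right: scaled TPM of models over 4000 nt (grey) and under 3000 nt (orange), and aligned kb on the gene per Gb counted. The grey parts span 2.28 to 2.42 TPM in propionate and 2.15 to 2.50 TPM in chloride, while the orange parts reach at most 1.05 TPM in propionate and at least 1.60 TPM in chloride.

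The growth factor *Igf2* was listed far below its neighbour model. *Igf2* (ENSMUSG00000048583, chromosome 7 minus strand, 142650766 to 142666816) encodes insulin-like growth factor 2, the main fetal ligand of the IGF receptor. It stood at 0.116, 0.0604 and 0.00633 TPM in propionate 1, 4 and 5, and at 0.0251, 0.0335 and 0.159 TPM in chloride 1, 2 and 3. A second annotated model, *Gm49394* (142650769 to 142669942, same strand), shares 3596 exonic bases with *Igf2*, which are 75.9% of its own. *Gm49394* stood at 1.41, 1.25 and 1.29 TPM in propionate libraries, and at 1.22, 1.24 and 1.53 TPM in chloride libraries. Of the bases given to *Gm49394*, 89.7% to 94.3% lay in the exons it shares with *Igf2*, where coverage was 2.77 to 5.24 times that of its own exons. Its own exon from 142669621 to 142669942 had a coverage of 0.5985 in chloride 3 and 0 in every other library. The level of RNA with *Igf2* exons is therefore not the *Igf2* listing alone. The sum of both was 1.38 ± 0.129 TPM in propionate and 1.40 ± 0.249 TPM in chloride.

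*H19*, a noncoding RNA transcribed beside *Igf2* from the other parental copy, was low. Its gene (ENSMUSG00000000031) spans 142575529 to 142578143 of chromosome 7, minus strand. It stood at 1.10, 0.269 and 0.291 TPM in propionate 1, 4 and 5, and at 0.141, 0.335 and 0 TPM in chloride 1, 2 and 3. Propionate 1 was the highest library, and without it the propionate values lay inside the chloride range. In propionate 1, 1.04 TPM came from ENSMUST00000132294, a model at 0.0399 TPM or less in the other 5 libraries. *Ins2*, the insulin gene next to *Igf2*, was listed at 0 in each library.

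*Cdkn1c* encodes p57, an inhibitor of cyclin-dependent kinases. It spans 143458339 to 143461050 of chromosome 7, minus strand (ENSMUSG00000037664). It stood at 0.345, 0.494 and 0.430 TPM in propionate 1, 4 and 5, and at 0.595, 0.507 and 0.185 TPM in chloride 1, 2 and 3, with propionate inside the chloride range. *Grb10* encodes an adaptor that dampens insulin and IGF receptor signalling. It lies on the minus strand of chromosome 11 (ENSMUSG00000020176, 11930508 to 12038683) and stood at 0, 0.0165 and 0 TPM in propionate 1, 4 and 5, against 0, 0.0352 and 0 TPM in chloride 1, 2 and 3. With no filter on low values, limma gave adjusted p from 0.887 to 0.996 for *H19*, *Cdkn1c*, *Igf2* and *Grb10*.

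The members listed at 0 in all 6 libraries were *Snrpn*, which encodes a spliceosomal protein of neurons, *Ndn*, which encodes the neuronal growth suppressor necdin, and *Dlk1*, which encodes a transmembrane relative of Notch ligands. No model of another gene that shared exon bases with them had a value. *Snrpn* had 2 models, *Ndn* 1 and *Dlk1* 10.

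Several imprinted domains around the members held expressed genes beside silent ones. In the *Dlk1*-*Dio3* domain, 3 of 6 genes were listed at 0 (*Dlk1*, *Dio3* and the noncoding RNA *Meg3*), and the others stayed at 0.442 TPM or less. In the *Snrpn*-*Ube3a* domain, 5 of 9 genes were listed at 0, namely *Snrpn*, *Snurf*, *Ndn*, *Magel2* and *Peg12*. The ubiquitin ligase gene *Ube3a*, which is imprinted in neurons only, stood there at 35.5 ± 3.14 TPM in propionate and 35.9 ± 1.48 TPM in chloride. *Atp10a*, a lipid flippase gene, stood at 13.6 ± 0.168 TPM and 14.0 ± 0.864 TPM in the same order. Around *Cdkn1c*, 6 of 10 genes averaged at least 1 TPM. The tetraspanin gene *Cd81* stood at 45.7 ± 4.71 TPM in propionate and 42.2 ± 0.237 TPM in chloride, and *Phlda2*, a growth restrainer of the placenta, at 17.2 ± 1.29 TPM and 18.3 ± 2.35 TPM. *Kcnq1ot1*, the paternal noncoding RNA that silences this domain in cis, stood at 1.47, 1.81 and 1.73 TPM in propionate 1, 4 and 5, and at 1.79, 2.49 and 2.66 TPM in chloride 1, 2 and 3. Its log2 difference was -0.30 (95% interval -0.67 to 0.06, limma adjusted p = 0.915), and propionate 4 lay above chloride 1. Beside *Peg3*, *Usp29* stood at 0.605 ± 0.161 TPM in propionate and 0.774 ± 0.117 TPM in chloride, *Zim1* at 0.0319 TPM or less, and *Zfp264* at 0. Beside *Grb10*, *Ddc* stood at 0.260 ± 0.0661 TPM in propionate and 0.304 ± 0.108 TPM in chloride.

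**Figure D4:**
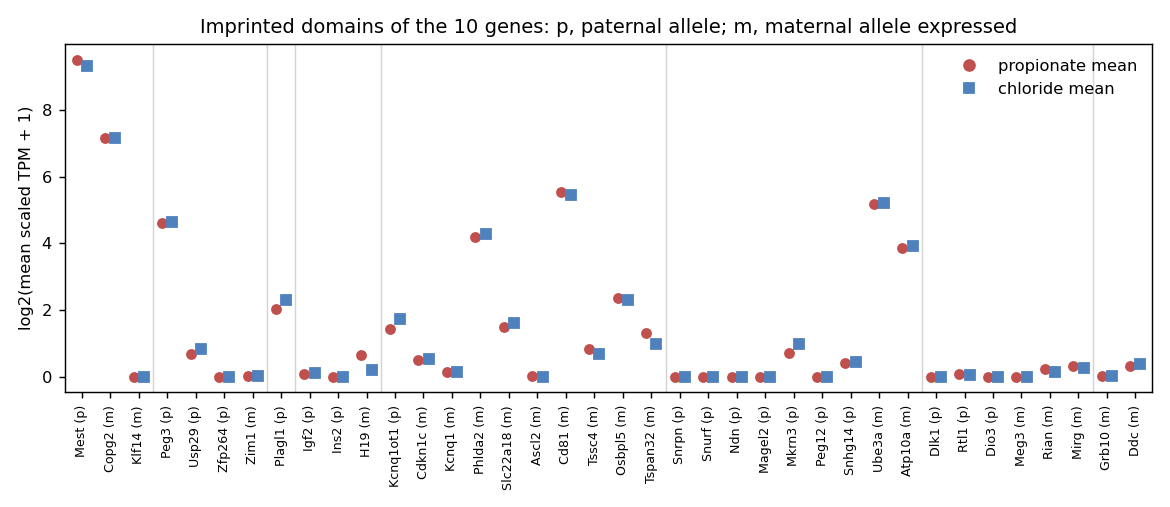
Mean scaled TPM per salt, as log2(mean + 1), of genes in the imprinted domains of the members. Letters give the allele under which each gene was listed (p paternal, m maternal), which was not measured. Red circles are propionate, blue squares chloride. Expressed genes such as *Cd81* and *Ube3a* stand in the same domains as members near 0.

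*Copg2*, a coat protein gene, runs towards *Mest* on the other strand and shares 912 exonic bases with it. Its reference models stood at 122.9, 93.1 and 128.9 TPM in propionate 1, 4 and 5, and at 117.5, 108.0 and 111.9 TPM in chloride 1, 2 and 3. An assembled model, MSTRG.17986.1, spans both genes and shares 929 bases with *Mest*. It stood at 0.346, 80.8 and 0.354 TPM in the propionate libraries and at 39.0, 45.6 and 0.823 TPM in the chloride libraries. Whether strand was used in counting is not stated in the labels or headers, so reads in the shared bases cannot be assigned with certainty. *Klf14*, the other gene of this domain, was listed at 0. Small models inside other members were low, with at most 0.0355 TPM for *Mir675* in *H19* and 0.268 TPM for *Gm27741* over *Plagl1*.

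Other imprinted genes showed the same absence of calls. Of 56 listed, 55 were found, 13 were listed at 0 in each library and 18 more averaged under 1 TPM. By sign, 8 of the 24 tested were higher and 16 lower, and their median log2 difference was -0.03, against 0.01 over all genes. With TPM as deposited they were 3 higher and 21 lower (median -0.12 against -0.08), and with voom 14 higher and 10 lower (median 0.01). Without propionate 1 they were 12 higher and 12 lower (median -0.0008), as they were without chloride 3 and propionate 1 (median 0.0001). None of the 24 passed by limma or voom. At unadjusted p under 0.05 there were 0 of them by limma and 2, both lower, by voom. By voom, 271 of all 15487 genes were higher and 559 lower at that p. The groups did not overlap for 3 of the 24 (2 above, 1 below), beside 11.7% of all genes (5.24% above, 6.48% below). After scaling, the differences of all 15487 genes were positive for 8017 and negative for 7470. In the deposited values, 3684 were positive and 11803 negative. A majority of negative signs in the deposited values is thus common to all genes and does not by itself set any list apart.

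Among 10 tested genes listed as paternally expressed, 2 were higher and 8 lower by sign (median -0.05). They were 0 and 10 with TPM as deposited and 4 and 6 with voom. The split was 4 and 6 without propionate 1 or without chloride 3, and 5 and 5 without both. The highest were *Sgce*, a sarcoglycan gene, at 40.1 ± 1.45 TPM in propionate and 38.3 ± 1.69 TPM in chloride, and the translation regulator *Impact* at 36.3 ± 2.89 TPM and 37.6 ± 2.82 TPM. *Peg13*, a noncoding RNA, stood at 22.4 ± 1.36 TPM in propionate and 23.4 ± 0.703 TPM in chloride. *Zrsr1*, a splicing factor gene, was the gene whose propionate libraries all lay below the chloride libraries, at 3.85 ± 0.0792 TPM against 4.24 ± 0.201 TPM (log2 -0.11, limma adjusted p = 0.930).

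Among 14 tested genes listed as maternally expressed, whose allele was not measured here, 6 were higher and 8 lower by sign (median -0.01). The split was 3 and 11 with TPM as deposited and 10 and 4 with voom. It was 8 and 6 without propionate 1 (median 0.01) and 9 and 5 without chloride 2 (median 0.02). *Gnas*, which encodes the stimulatory G protein subunit, led at 353.2 ± 9.51 TPM in propionate and 339.8 ± 17.6 TPM in chloride, below *Mest* in each library. *Commd1*, a regulator of copper and NF-kappaB, stood at 53.3 ± 2.57 TPM in propionate and 54.1 ± 6.47 TPM in chloride. *Tspan32*, a tetraspanin gene, had the smallest p of this list, at 1.47 ± 0.269 TPM against 0.965 ± 0.163 TPM (log2 0.33, 95% interval -0.06 to 0.72, limma adjusted p = 0.915). *Ppp1r9a*, which encodes neurabin, stood at 5.82 ± 0.316 TPM in propionate and 6.69 ± 0.641 TPM in chloride (log2 -0.17).

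**Figure D5:**
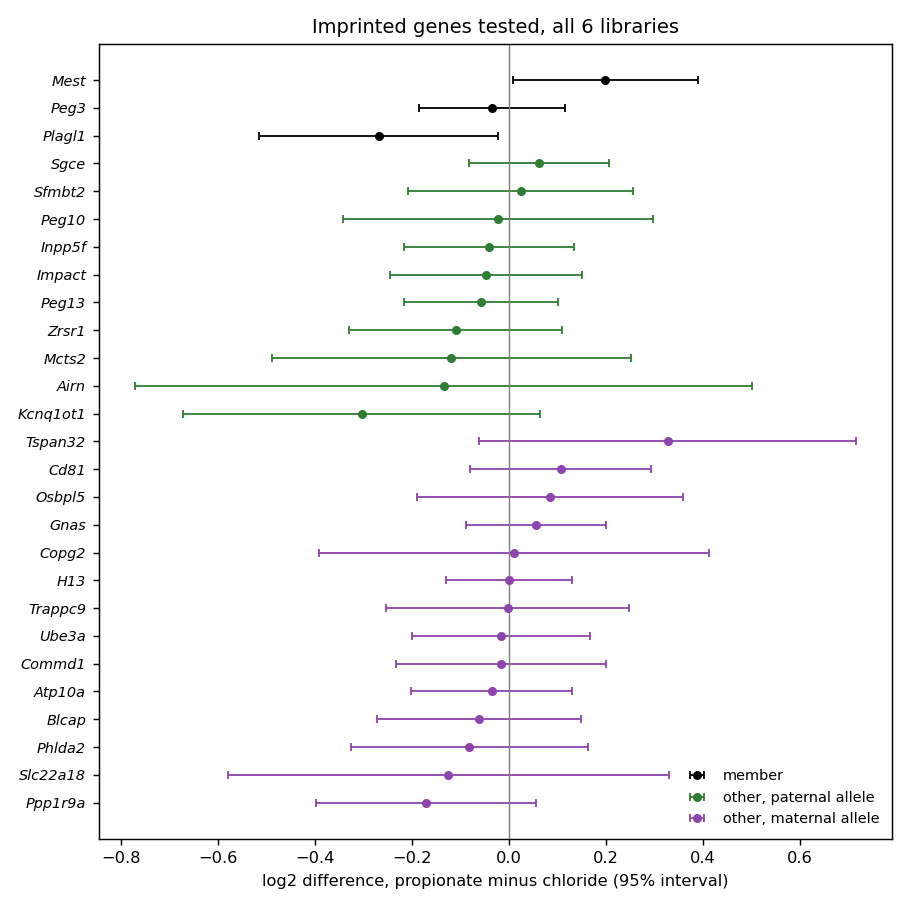
Log2 differences with 95% intervals, propionate minus chloride, for the 3 tested members and the 24 other imprinted genes tested, grouped by the allele under which they were listed. The intervals of *Mest* (0.01 to 0.39) and *Plagl1* (-0.52 to -0.02) lie off 0 before adjustment, and no gene passed after adjustment.

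Most listed genes of the machinery that keeps imprints were expressed, while *Dnmt3l* stayed at 0.0491 TPM or less and *Dppa3* was listed at 0. Of 11 listed genes, 9 were tested, 1 higher and 8 lower by sign (median -0.04), 0 and 9 with TPM as deposited and 5 and 4 with reference transcripts alone. Leaving out 1 library gave 1 to 4 higher, with 4 without chloride 3 or without propionate 4 and 2 without chloride 1, chloride 2 or propionate 5. *Trim28*, the corepressor that ZFP57 recruits, stood at 162.6 ± 13.6 TPM in propionate and 162.8 ± 5.34 TPM in chloride. The maintenance methyltransferase gene *Dnmt1* stood at 126.9 ± 8.44 TPM and 125.6 ± 1.43 TPM in the same order, and its partner *Uhrf1* at 123.6 ± 6.20 TPM and 125.0 ± 13.6 TPM. *Zfp57* stood at 2.31, 4.73 and 5.85 TPM in propionate 1, 4 and 5, and at 5.73, 6.71 and 6.64 TPM in chloride 1, 2 and 3. Propionate 1 was the lowest, and propionate 5 overlapped chloride 1 (log2 -0.54, 95% interval -1.14 to 0.07, limma adjusted p = 0.915). *Zfp445*, another zinc finger gene of imprint upkeep, stood at 27.5 ± 2.46 TPM in propionate and 29.8 ± 1.38 TPM in chloride. None of the 9 passed by limma or voom, with 0 at unadjusted p under 0.05 in either.

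Receptor and mRNA-binding protein genes of the IGF pathway were expressed, except the receptor gene *Igf2r*, which averaged 0.323 TPM. Of 15 listed genes, 9 were tested, 4 higher and 5 lower by sign (median -0.0024), 1 and 8 with TPM as deposited. Without chloride 1, chloride 3, propionate 4 or propionate 5 they were 5 and 4, with a median above 0. The receptor gene *Igf1r* stood at 24.8 ± 2.23 TPM in propionate and 26.6 ± 1.38 TPM in chloride. The receptor substrate gene *Irs1* stood at 49.7 ± 3.34 TPM in propionate and 52.6 ± 1.29 TPM in chloride. The mRNA-binding protein genes *Igf2bp3* and *Igf2bp2* stood at 41.7 ± 0.565 TPM and 36.9 ± 3.52 TPM in propionate, and at 40.4 ± 0.304 TPM and 35.3 ± 3.21 TPM in chloride. *Igfbp6*, a secreted binding protein with a preference for IGF2, stood at 6.84 ± 0.185 TPM in propionate and 5.66 ± 0.923 TPM in chloride (log2 0.25, 95% interval -0.04 to 0.53, limma adjusted p = 0.915). *Igf1*, the other ligand gene, stood at 0.461 TPM or less, *Igf2r*, a maternally expressed receptor that clears IGF2, at 0.864 TPM or less, and *Igfbp2*, *Igfbp3* and *Igfbp5* were listed at 0. None of the 9 passed by limma or voom, with 0 at unadjusted p under 0.05 in either.

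The 11 listed relatives of the members that are not imprinted were all expressed. *Igf1*, which was low, was counted with the IGF pathway and is not among them. All 11 were tested, 8 higher and 3 lower by sign (median 0.07), but 2 and 9 with TPM as deposited. Without propionate 1 they were 5 higher and 6 lower (median -0.0016), as they were without chloride 3 and propionate 1 (median -0.0008). *Snrpb*, the relative of *Snrpn* used in most cells, stood at 322.8 ± 7.14 TPM in propionate and 305.0 ± 9.24 TPM in chloride, against *Snrpn* at 0. *Maged1* and *Maged2*, of the same protein family as *Ndn*, stood at 143.2 ± 0.665 TPM and 73.1 ± 4.22 TPM in propionate, and at 133.9 ± 1.74 TPM and 66.9 ± 4.75 TPM in chloride. *Grb7*, a relative of *Grb10*, stood at 3.46 ± 0.481 TPM in propionate and 4.40 ± 0.114 TPM in chloride (log2 -0.28, limma adjusted p = 0.915). None passed by limma or voom, with *Grb7* alone at unadjusted p under 0.05 by limma.

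The protein-coding genes whose levels over the 6 libraries were most like those of *Mest* were *Vax2*, *Gipc1* and *Syt11*. The measure was the mean absolute difference of centred log2 values, which was 0.04 for each, against a median of 0.14 over protein-coding genes. The genes were picked for the smallest values of this measure, so their place below the median was fixed in advance. *Vax2*, a homeobox gene, stood at 5.46, 4.93 and 5.13 TPM in propionate 1, 4 and 5, and at 4.69, 4.12 and 4.78 TPM in chloride 1, 2 and 3. As with *Mest*, its lowest library was chloride 2 and its highest propionate 1.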

How the data were processed

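Total RNA of 6 libraries was sequenced, prepared with a stranded kit per the labels' protocols. Tools named in the submitters' processing notes are StringTie, HISAT2, fastp and bcl2fastq, with build mm10. Per the file headers, StringTie 2.1.1 estimated a fixed model set in each library. The deposited per-transcript TPM are the score values used here, and the coverage values that the authors deposited gave aligned bases. No counts were used; TPM sum to 1000000, so depth came from the ratio of coverage to FPKM.

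The 157296 models were joined to genes of GENCODE M21 (mm10). Of 14805 assembled models, 11811 were joined to the reference gene of their assembled locus, and the others were kept as loci of their own. Where a locus held several reference genes, the one whose exons the model overlaps most on its strand was taken. TPM were summed per gene, and libraries were scaled by the median ratio to their geometric mean. Genes whose mean reached 1 TPM and whose longest transcript reached 200 nt were tested two-sided with limma 3.58.1 (variance trend) in R 4.3.3 on log2(TPM + 1), with Benjamini-Hochberg adjustment and a threshold of 0.05. This scale understates changes of low genes. Reads for voom were estimated from coverage, length and a read length of 101 bases. The gene test was also run on simulated data with independent noise for each gene. Such data lack shifts that many genes share within a library, so no conclusion is drawn from that run. Files were read with Python 3.11.15 and pandas 2.3.3.

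The members and lists were chosen with earlier results of these data known. All members are named. From each other list, genes past the threshold are named, or else the 3 highest and the 2 with the smallest p, with genes beside a member; others named were chosen after their values were seen. Alternatives changed the scaling, pseudocount, filter, models, test and libraries. A listed 0 can be a failed estimate.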

Additional observations from a re-analysis of the deposited data

How the results depend on the processing

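No paired analysis was possible because the groups share only replicate number 1. *Mest* and *Peg3* were refitted under 16 alternatives and *Plagl1* under 15, and none passed the threshold in any, with limma or voom adjusted p of 0.576 or above. No other imprinted gene passed in any of the 16. *Plagl1* could not be tested with a mean of at least 5 TPM. The log2 difference of *Mest* ran from 0.10 to 0.25 and that of *Plagl1* from -0.34 to -0.0081. Leaving out 1 library gave 0.14 to 0.25 for *Mest*, -0.0753 to 0.0026 for *Peg3* and -0.31 to -0.22 for *Plagl1*. *Peg3* changed sign without propionate 1 (0.0026) and without chloride 3 and propionate 1 (0.0068); the cause was not tested. Over all genes, 1 was higher by limma (*Gm17201*). The count was 2 with a mean of at least 5 TPM, 2 summed over the assembled locus, 0 with no filter, 0 with voom, 5 without chloride 3 and propionate 1, and 1 to 4 when 1 library was left out (4 without propionate 1). The count of lower genes was 0, but 1 without chloride 3 and propionate 1. The cause of these shifts was not tested. Depth limits the members under 1 TPM, whose values rest on few reads.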
